A study of Mus musculus with 12 samples.

Results

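Genes of the Wnt pathway were followed in superior cervical ganglion (SCG) cells of the mouse, the sympathetic ganglion of the neck, either freshly dissected or kept in culture. The set was a fixed list of 44 gene symbols covering Wnt ligands, their receptors, secreted inhibitors, R-spondins and feedback genes, which takes in genes by name. The list was drawn up with earlier results of these data known. Of these, 43 had at least 1 probe set on the array that the platform annotation assigns to that symbol alone, among 18193 genes measured that way. Tcf7 was not analysed here. For the 28 of the 43 with more than 1 probe set, the probe set with the highest mean over all arrays stood for the gene.

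The 3 groups were freshly dissected SCG tissue, SCG cells in three-dimensional (3D) polystyrene scaffolds, and SCG cells on a flat (2D) surface, with 4 arrays in each. All mice were of the CD1 strain. The labels give their age as 21 days, whereas the methods name neonatal mice as the source of the cells. The 2D surface is a polystyrene dish in the labels and a glass-bottom dish in the methods. Both cultures were kept for 5 days on a collagen coating in serum-containing medium with nerve growth factor, so that each comparison of tissue with a culture also compares dissected with dissociated, serum-fed and growth factor-fed cells. On average a dish or scaffold received the cells of more than 1 ganglion, and each group was a mixture of neurons, glia and other cells. In such bulk samples fewer cells of a type and less RNA per cell cannot be told apart. The labels call the arrays biological replicates but do not say whether each came from separate animals, so the p-values measure the spread between these arrays.

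Wnt proteins are secreted, lipid-bearing ligands that bind Frizzled receptors on the cell surface. With the co-receptors Lrp5 and Lrp6 they shut down the destruction complex built around Axin and Apc, so that beta-catenin enters the nucleus and switches on genes together with Lef1 and its relatives. Other Wnts, Wnt5a among them, act through Ror receptors and the planar polarity proteins without beta-catenin. In developing sympathetic neurons, Wnt5a is known to act downstream of nerve growth factor in axon growth and branching, and Frizzled and Ror receptors take part in the innervation of target organs. Secreted Frizzled-related proteins and Wif1 bind the ligands, Dkk proteins block the co-receptors, R-spondins keep Frizzled receptors on the surface, and Axin2 and Nkd1 are feedback genes that the pathway switches on against itself.

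Of the 7 genes called between tissue and both cultures, the 4 found in the promoter table used here, Axin2, Sfrp2, Sfrp5 and Fzd1, are shown with the 250 bases upstream of their start sites. The sequences are from the RefSeq promoter table on build GRCm38.p6, in which 29 of the 43 genes were found, and are written 5′ to 3′ on the strand of the gene. They lie at chr11:108920099-108920348 on the plus strand for Axin2, chr3:83766071-83766320 on the plus strand for Sfrp2, chr19:42202253-42202502 on the minus strand for Sfrp5 and chr5:4758217-4758466 on the minus strand for Fzd1. Fzd2, Fzd8 and Sfrp1 are named only. Capitals mark every match, on either strand, to the TCF/LEF letters CTTTG followed by AA, AT, TA or TT, to TATAAA and to GGGCGG.
Axin2: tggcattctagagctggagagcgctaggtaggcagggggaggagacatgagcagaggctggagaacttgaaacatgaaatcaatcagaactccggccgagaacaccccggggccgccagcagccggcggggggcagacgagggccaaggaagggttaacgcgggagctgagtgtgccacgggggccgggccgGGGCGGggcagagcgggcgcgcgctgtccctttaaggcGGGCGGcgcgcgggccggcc
Sfrp2: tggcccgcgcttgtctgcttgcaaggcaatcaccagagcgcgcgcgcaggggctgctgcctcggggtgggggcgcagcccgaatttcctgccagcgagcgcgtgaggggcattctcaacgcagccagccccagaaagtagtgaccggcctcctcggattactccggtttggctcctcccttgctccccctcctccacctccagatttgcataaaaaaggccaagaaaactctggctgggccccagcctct
Sfrp5: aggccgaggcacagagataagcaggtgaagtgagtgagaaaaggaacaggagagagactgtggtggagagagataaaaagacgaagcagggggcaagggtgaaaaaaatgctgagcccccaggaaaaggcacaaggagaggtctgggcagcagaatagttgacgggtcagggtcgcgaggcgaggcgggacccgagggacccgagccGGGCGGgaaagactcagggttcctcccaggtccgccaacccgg
Fzd1: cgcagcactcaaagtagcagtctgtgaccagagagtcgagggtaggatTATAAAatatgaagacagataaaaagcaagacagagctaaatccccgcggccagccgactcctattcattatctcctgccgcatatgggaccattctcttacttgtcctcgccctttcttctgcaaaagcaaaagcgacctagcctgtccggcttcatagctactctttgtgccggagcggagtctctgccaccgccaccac
None of these windows held the TCF/LEF letters, which were found in 14.8% of all 32851 windows of the same length and in 14.3% of the 35 windows of the Wnt genes. The Axin2 window held 2 GGGCGG matches and the Sfrp5 window held 1, against 32.7% of all windows with at least 1. Only the Fzd1 window of these held TATAAA, which 12.4% of all windows contain. The share of G and C was 69.2% for Axin2, 63.6% for Sfrp2, 59.6% for Sfrp5 and 51.2% for Fzd1, beside a median of 52.4% over all windows. A match is a description of the letters and not a binding site, and the letters outside these windows were not searched.

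Values are the deposited log2 RMA values, in which 1 unit is a doubling of signal after background adjustment, quantile normalization and summarization over the probes of a set. Levels of different probe sets cannot be set against each other, so groups were compared within a probe set, apart from the summed and averaged markers. A gene was called when limma's p-value for a pair of groups, adjusted by the Benjamini-Hochberg method over all 45037 non-control probe sets, was under 0.05. Exact permutation tests over the 70 splits of 8 arrays were run beside it, and a gene whose arrays did not overlap between groups reached 0.0286, the smallest two-sided p these allow.

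The arrays were checked against markers of the cells they could hold. Th and Dbh, enzymes of noradrenaline synthesis that define sympathetic neurons, read 11.05 to 13.45 and 10.79 to 13.78 in tissue, 9.44 to 10.63 and 11.94 to 12.80 in 3D, and 9.59 to 12.44 and 11.41 to 12.99 in 2D. The summed linear signal of 11 sympathetic markers was 38367 to 87187 in tissue, 15089 to 26977 in 3D and 11681 to 39516 in 2D, with 9 called higher against 3D and 4 against 2D. That of 7 dividing-cell markers was 288 to 454 in tissue, 5140 to 7280 in 3D and 4549 to 6846 in 2D, and all 7 were called lower in tissue against each culture. The 11 endothelial markers summed to 2326 to 5021 in tissue, 1125 to 1536 in 3D and 1266 to 1913 in 2D, with 8 called higher against 3D and 7 against 2D. The 10 macrophage markers summed to 3990 to 7375 in tissue, 2016 to 2547 in 3D and 1206 to 5936 in 2D, with 7 called higher and 2 lower against 3D, and 1 in each direction against 2D. Fibroblast markers overlapped between groups, at 17272 to 63366 in tissue, 59295 to 68856 in 3D and 47923 to 73079 in 2D, and of 10, 1 was higher and 1 lower against 3D and 3 were higher and 1 lower against 2D. Of 10 glial markers, at 18642 to 48162 in tissue, 37161 to 39949 in 3D and 28880 to 42801 in 2D, 3 were higher and 4 lower against 3D, and 1 was higher and 4 lower against 2D. The 7 smooth muscle and pericyte markers summed to 6950 to 10921 in tissue, 8129 to 11671 in 3D and 10223 to 26280 in 2D. The 10 skeletal muscle markers summed to between 464 and 5497 in tissue, against 382 to 437 in 3D and 376 to 430 in 2D, and were high on tissue replicates 2, 3 and 4. Tissue replicates 2 and 3 also had a narrower spread of values over probe sets (SD 2.14 and 1.93 on the log2 scale) than replicates 1 and 4 (2.31 and 2.32) or the cultures (2.35 to 2.42). RMA values have no zero, so no marker reads 0. Each sum adds different probe sets, so the brightest weigh most in it. How far these cell types account for the differences of the Wnt genes was not tested.

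Against 2D cultures, tissue had higher signal for Wnt10a, Fzd2, Sfrp2, Sfrp5 and Axin2 and lower signal for Wnt5a, Fzd1, Fzd8 and Sfrp1. These 9 of 43 genes made 20.9%, where 24.1% of all genes were called in that comparison (9.87% higher and 14.3% lower). Against 3D cultures, Fzd2, Fzd4, Sfrp2, Sfrp5 and Axin2 were higher in tissue and Wnt4, Fzd1, Fzd8, Lrp5, Sfrp1 and Frzb were lower, which made 11 of 43 or 25.6%, beside 35.6% of all genes (15.5% higher and 20.1% lower). Both shares lay below those of the array as a whole, and the gap was not tested. The median log2 difference of the 43 was 0.08 against 2D and 0.13 against 3D, beside 0.03 over all genes in each. Arrays of the groups did not overlap for 12 members (27.9%) against 2D and for 14 (32.6%) against 3D, where 33.8% and 42.4% of all genes did not overlap. Between 3D and 2D cultures no member was called, and 3 of all genes were (0.0165%).

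**Figure D1:**
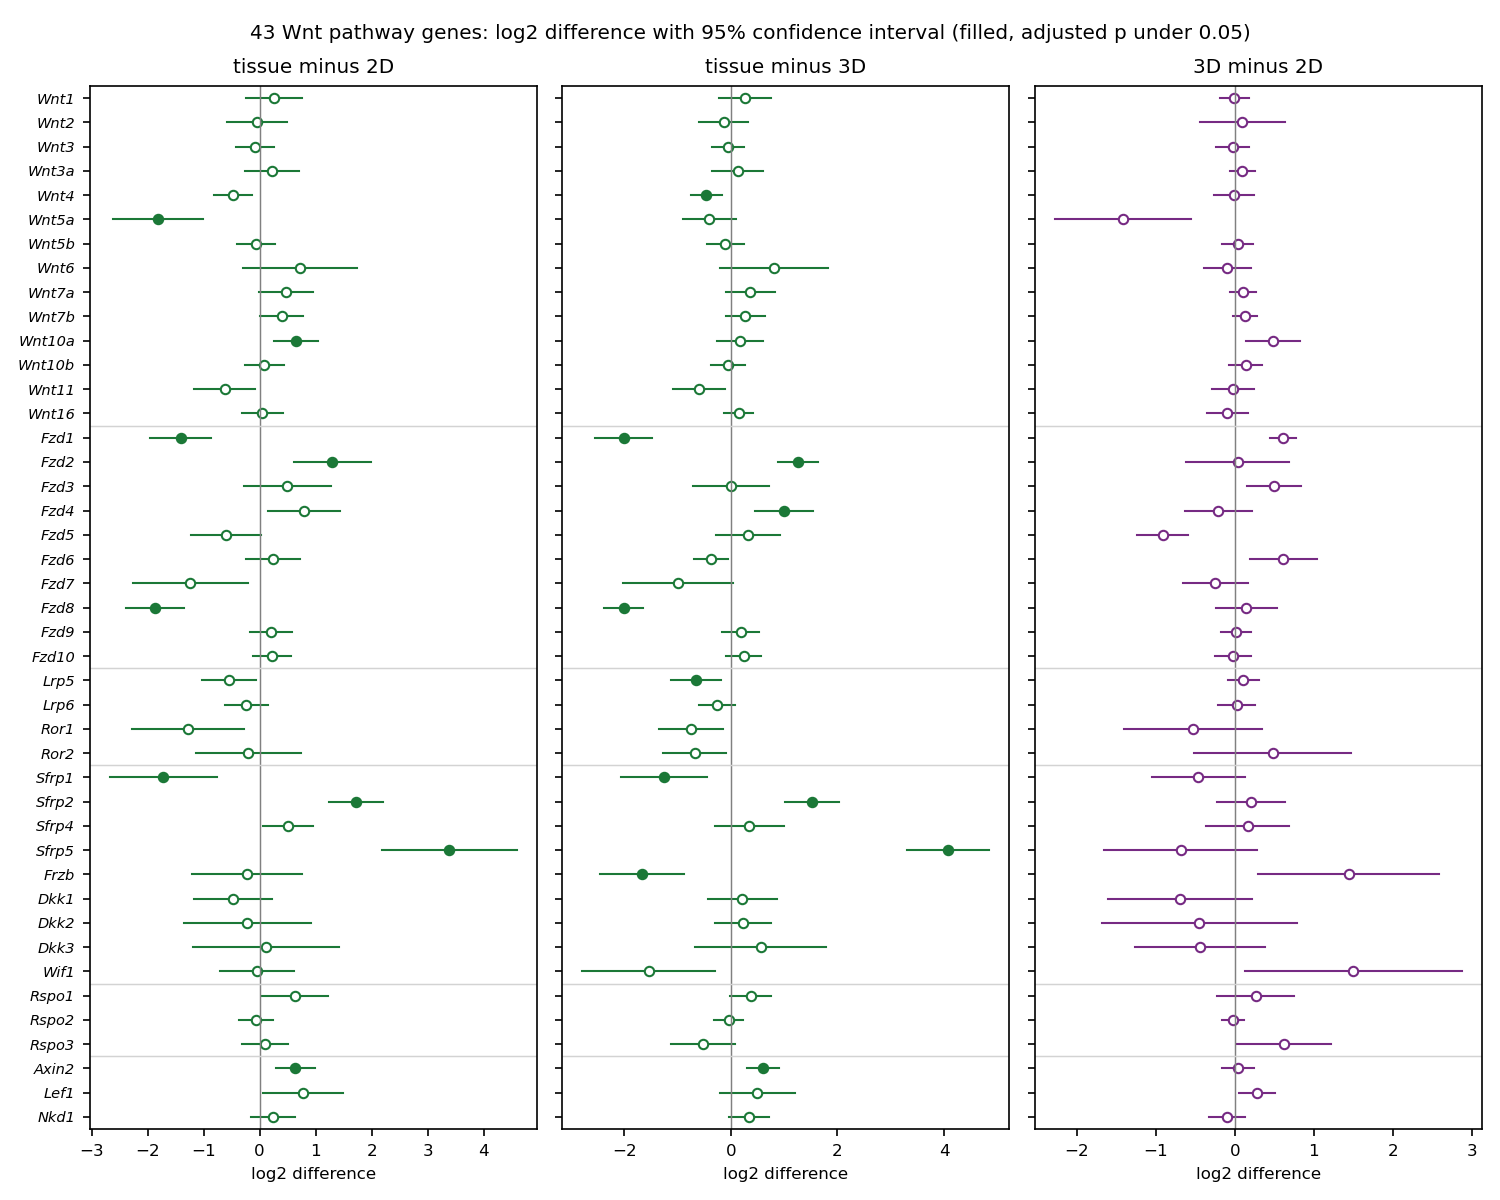
Log2 difference of each of the 43 Wnt pathway genes for tissue minus 2D, tissue minus 3D and 3D minus 2D, with its 95% confidence interval; filled points have an adjusted p under 0.05 and grey lines part the roles. Sfrp5 lies farthest to the right in both tissue comparisons, at 3.39 and 4.07, and no point is filled in the comparison of the cultures.

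Of the 14 Wnt ligands, 1 was higher and 1 lower in tissue than in 2D, and 1 was lower than in 3D. These made 14.3% and 7.14%, beside 24.1% and 35.6% of all genes. Wnt5a, a ligand that mostly acts without beta-catenin, read 6.57, 6.26, 6.51 and 6.12 on the tissue arrays, 7.23, 7.02, 6.41 and 6.42 on the 3D arrays and 7.27, 8.38, 7.93 and 9.15 on the 2D arrays (probe set 1436791_at). The 2D arrays all lay above the other 8, while tissue and 3D overlapped. Tissue averaged 6.37 ± 0.21 and 2D 8.18 ± 0.79 (SD, n = 4 each), a difference of -1.82 with an adjusted p of 0.00885, or 3.52-fold lower in tissue. The difference of tissue from 3D was -0.41 (adjusted p = 0.174). That of 3D from 2D was -1.41 with a 95% interval of -2.27 to -0.55, and the arrays did not overlap, but its adjusted p was 0.232. Of the other 3 Wnt5a probe sets, 1 was called lower against 2D (-1.76, adjusted p = 0.0251) and a different 1 against 3D (-0.61, adjusted p = 0.0273). The third had the opposite sign and was not called, at 0.73 from 3D (adjusted p = 0.0793) and 0.67 from 2D (adjusted p = 0.124).

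Wnt4, a ligand best known from kidney and gonad development, read 6.06, 5.77, 5.99 and 6.0 in tissue, 6.59, 6.32, 6.35 and 6.42 in 3D and 6.46, 6.67, 6.22 and 6.37 in 2D. Every tissue array was below every culture array. The difference was -0.47 from 3D (adjusted p = 0.0226) and -0.47 from 2D (adjusted p = 0.0512), so only the first was called. The call against 3D was lost in 9 of 23 alternatives, among them each 3D array left out in turn, tissue replicate 2 left out, and centring of the arrays on bright probe sets, where the difference was -0.19 (adjusted p = 0.373).

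Wnt10a, a ligand of skin, tooth and hair development, read 5.70, 5.99, 6.13 and 6.33 in tissue, 5.46, 5.98, 5.97 and 6.07 in 3D and 5.14, 5.52, 5.36 and 5.53 in 2D. The lowest tissue array stood just above the highest 2D array, and tissue overlapped with 3D. The tissue value was 0.65 higher than in 2D (adjusted p = 0.0313) and differed by 0.17 from 3D (adjusted p = 0.5). This call was lost in 12 of 22 alternatives, among them each single 2D array left out (adjusted p = 0.0908, 0.066, 0.067 and 0.0597 without replicates 1, 2, 3 and 4) and tissue replicate 2 or 4 left out (0.0719 and 0.0526).

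The other 11 ligands of the list were not called against either culture. Wnt6 stood out among them by its spread, with 8.85, 7.65, 6.73 and 8.90 on the tissue arrays, 6.99, 7.46, 7.33 and 7.10 in 3D and 7.38, 7.35, 7.46 and 7.06 in 2D. Tissue replicates 1, 2 and 4 lay above all culture arrays and replicate 3 below them. A dimmer Wnt6 probe set, singled out after its values were seen, read 7.38, 6.54, 6.42 and 7.49 in tissue, 4.74, 4.98, 4.98 and 4.88 in 3D and 5.05, 4.98, 5.72 and 4.38 in 2D, without overlap. On that probe set tissue was higher by 2.06 than 3D (adjusted p = 5.07e-04) and by 1.93 than 2D (adjusted p = 0.00594). Wnt7b, a ligand of the developing nervous system and lung that was likewise picked after its values were seen, had 7.70, 8.31, 7.88 and 7.68 in tissue, 7.58, 7.65, 7.67 and 7.59 in 3D and 7.45, 7.46, 7.51 and 7.56 in 2D. Its 3 groups did not overlap, yet the differences of 0.27 from 3D (adjusted p = 0.211) and 0.40 from 2D (adjusted p = 0.115) were not called.

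Called Frizzled receptors went in both directions, as did the called genes of the whole array. Of the 10, Fzd2 was higher and Fzd1 and Fzd8 were lower in tissue than in 2D. Against 3D, Fzd2 and Fzd4 were higher and Fzd1 and Fzd8 lower. These made 30.0% of the 10 against 2D and 40.0% against 3D, beside 24.1% and 35.6% of all genes. Fzd1 read 9.87, 8.83, 8.94 and 9.62 in tissue, 11.40, 11.38, 11.26 and 11.27 in 3D and 10.67, 10.81, 10.68 and 10.72 in 2D (1437284_at). The groups did not overlap and the culture arrays lay within a narrow band, at 11.33 ± 0.07 in 3D and 10.72 ± 0.06 in 2D beside 9.31 ± 0.51 in tissue (SD, n = 4 each). Tissue was 4.03-fold lower than 3D (log2 difference -2.01, adjusted p = 3.79e-04) and 2.65-fold lower than 2D (-1.41, adjusted p = 0.00522). No alternative removed either call, and the dimmer Fzd1 probe set was also called lower, by 1.13 against 3D and 0.63 against 2D.

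Fzd8 read 8.32, 7.69, 8.17 and 8.23 in tissue, 10.01, 10.16, 10.12 and 10.18 in 3D and 10.31, 10.08, 9.43 and 10.06 in 2D (1423348_at). The cultures overlapped with each other and all lay above tissue. The difference was -2.02 from 3D (adjusted p = 5.07e-05) and -1.87 from 2D (adjusted p = 0.00112). The other Fzd8 probe set was called lower against 3D (-1.31, adjusted p = 0.00147) and not against 2D (-0.70, adjusted p = 0.382).

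Fzd2 ran the other way. Its brightest probe set (1418534_at) read 9.51, 9.03, 9.06 and 9.41 in tissue, 7.73, 8.0, 8.23 and 8.02 in 3D and 8.18, 7.41, 7.48 and 8.76 in 2D. All tissue arrays were above all culture arrays, with a difference of 1.26 from 3D (adjusted p = 7.5e-04) and 1.29 from 2D (adjusted p = 0.0182). The other Fzd2 probe sets did not share it: they differed by -0.09 and -0.52 from 3D (adjusted p = 0.764 and 0.357) and by -0.17 and -0.64 from 2D (adjusted p = 0.735 and 0.362). Averaged over its probe sets, Fzd2 differed by 0.21 from 3D and 0.16 from 2D (adjusted p = 0.513 and 0.756). Without 2D replicate 2 the call against 2D was lost as well (adjusted p = 0.0542).

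Fzd4, which also serves as the receptor for Norrin in retinal vessels, read 7.0, 7.38, 6.73 and 7.87 in tissue, 6.06, 6.16, 6.48 and 6.29 in 3D and 6.46, 6.46, 5.98 and 6.92 in 2D. Tissue lay above 3D throughout and overlapped with 2D only through 2D replicate 4. It was higher than 3D by 1.0 (adjusted p = 0.013), and a dimmer Fzd4 probe set was called in the same direction (0.77, adjusted p = 0.00342). The difference from 2D was 0.79 (adjusted p = 0.0721) and reached 0.96 (adjusted p = 0.0372) without tissue replicate 3. The endothelial markers given above were higher in tissue as well, and their part in the Fzd4 difference was not tested.

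Fzd3, a receptor needed for the growth and guidance of many axon tracts and for sympathetic innervation, gave different results on its different probe sets and was singled out after its values were seen. The brightest (1434788_at) read 9.33, 10.32, 10.39 and 8.94 in tissue, 9.57, 9.84, 9.76 and 9.81 in 3D and 9.51, 9.25, 8.81 and 9.42 in 2D. Tissue replicates 2 and 3 were the highest of all and replicate 4 among the lowest, and the difference was 0.00 from 3D (95% interval -0.72 to 0.72) and 0.50 from 2D (adjusted p = 0.292). Probe set 1450135_at read 6.48, 6.29, 5.98 and 7.0 in tissue, 8.60, 8.66, 8.72 and 8.95 in 3D and 8.72, 8.75, 8.73 and 8.77 in 2D, with no overlap between tissue and the cultures. There tissue was lower by 2.30 against 3D (adjusted p = 1.19e-04) and by 2.31 against 2D (adjusted p = 2.77e-04). Of the 5 dimmer Fzd3 probe sets, 4 were called lower against 3D and 2 against 2D, and none was called higher.

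**Figure D2:**
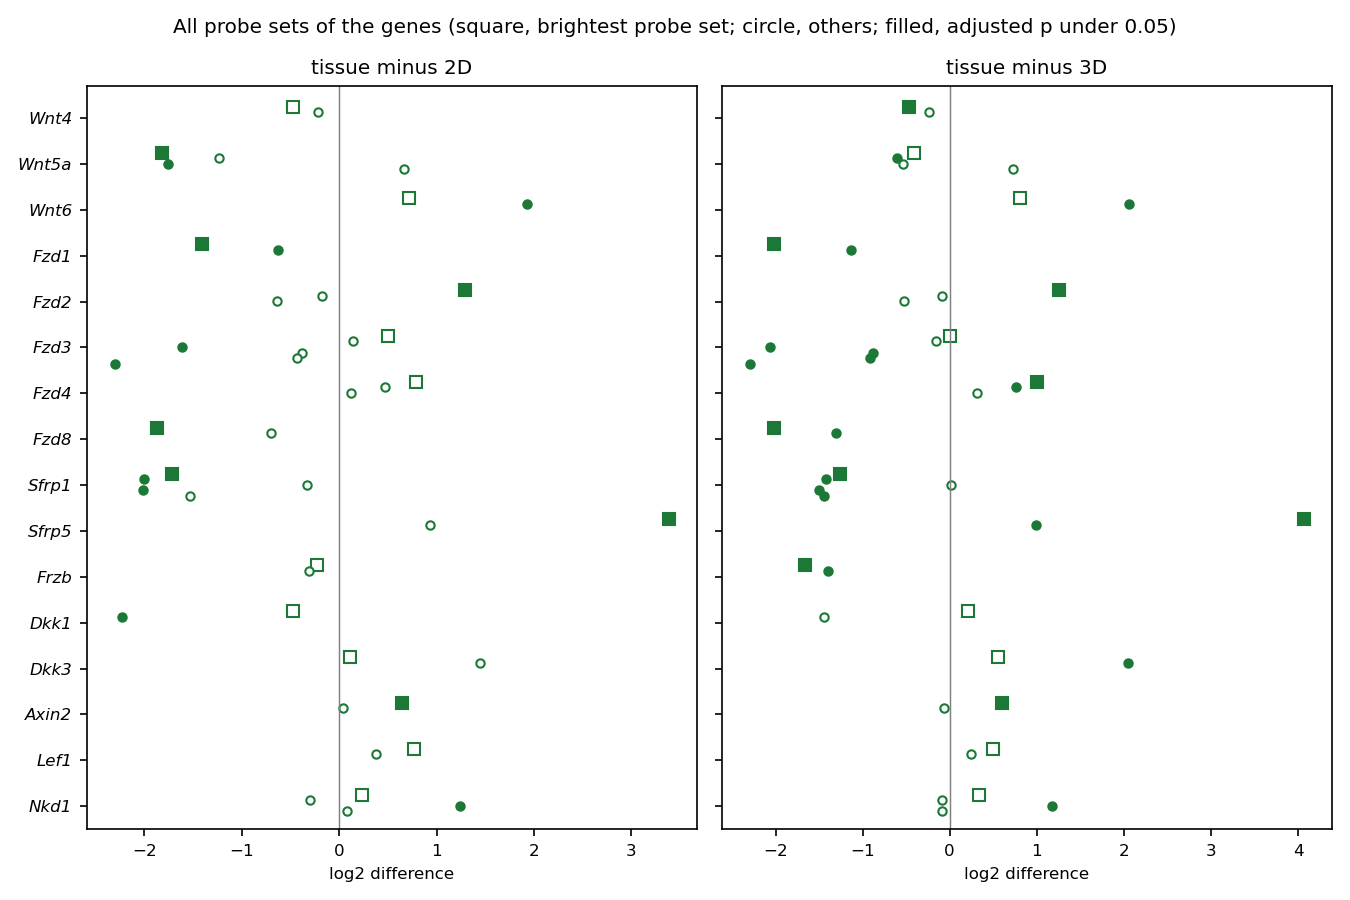
Log2 difference, tissue minus 2D and tissue minus 3D, of every probe set of Wnt pathway genes that have more than 1. Drawn are those described with array values, apart from Wnt7b, Fzd5 and Fzd7. Squares are the brightest probe set of a gene, circles its others, and filled symbols have an adjusted p under 0.05. Fzd1, Fzd8 and Frzb keep 1 direction over their probe sets, whereas the Fzd2 and Fzd3 squares lie to the right of all their circles.

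The remaining Frizzled genes, Fzd5, Fzd6, Fzd7, Fzd9 and Fzd10, were not called in either tissue comparison. Fzd7, picked after its values were seen, read 9.65, 8.47, 7.34 and 9.36 in tissue, 10.12, 9.66, 9.41 and 9.60 in 3D and 9.65, 10.05, 9.80 and 10.27 in 2D. Its low values were those of tissue replicates 2 and 3, the arrays with the narrow spread, and the differences of -0.99 from 3D and -1.24 from 2D had adjusted p of 0.119 and 0.0783.

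Of the 4 co-receptors, Lrp5 alone was called, and against 3D alone. Lrp5, which pairs with Frizzled in beta-catenin signalling, read 4.27, 4.68, 4.82 and 5.29 in tissue, 5.38, 5.35, 5.57 and 5.38 in 3D and 5.47, 5.33, 5.25 and 5.19 in 2D. Tissue lay below 3D throughout and overlapped with 2D through tissue replicate 4. It was lower than 3D by 0.66 on the log2 scale (95% interval of the difference -1.12 to -0.19, adjusted p = 0.038) and differed from 2D by -0.55 (adjusted p = 0.0938). The call against 3D was lost in 11 of 22 alternatives, among them each 3D array left out (adjusted p = 0.0788, 0.0803, 0.0994 and 0.0851 without replicates 1 to 4), tissue replicate 1 or 2 left out (0.0586 and 0.0914) and centring on bright probe sets (-0.38, adjusted p = 0.202). Lrp6, its close relative, differed by -0.26 from 3D and -0.23 from 2D (adjusted p = 0.201 and 0.317). Ror1 and Ror2, the receptors of Wnt5a, were not called. Ror1 differed by -0.75 from 3D and -1.28 from 2D (adjusted p = 0.0588 and 0.0658), and Ror2 by -0.68 and -0.20 (adjusted p = 0.072 and 0.725).

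Among the secreted inhibitors, Sfrp5 had the widest differences of the set, on its brightest probe set. Of the 9, Sfrp2 and Sfrp5 were higher in tissue than in either culture, Sfrp1 was lower than in either, and Frzb was lower than in 3D. Those called made 33.3% of the 9 against 2D and 44.4% against 3D, beside 24.1% and 35.6% of all genes. Sfrp5 read 10.82, 10.24, 9.49 and 11.31 in tissue, 6.37, 6.29, 6.60 and 6.31 in 3D and 8.56, 6.67, 6.42 and 6.66 in 2D (1436075_at). The lowest tissue array stood above the highest culture array, 2D replicate 1, which itself was well above the other culture arrays. Tissue was 16.8-fold higher than 3D (4.07 on the log2 scale, 95% interval 3.30 to 4.85, adjusted p = 7.02e-05) and 10.5-fold higher than 2D (3.39, 2.19 to 4.59, adjusted p = 0.0035). The other Sfrp5 probe set gave smaller differences, 0.99 from 3D (adjusted p = 0.0439) and 0.94 from 2D (adjusted p = 0.0822).

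Sfrp2 read 6.09, 6.01, 5.98 and 6.72 in tissue, 4.34, 4.51, 5.09 and 4.80 in 3D and 4.45, 4.37, 4.23 and 4.87 in 2D (1448201_at, its only probe set). Tissue lay above both cultures without overlap, by 1.51 against 3D (2.86-fold, adjusted p = 0.00125) and by 1.72 against 2D (3.29-fold, adjusted p = 0.00135). No alternative that tested it removed either call. The filter for probe sets at 6 or more on at least 4 arrays left it out.

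Sfrp1 was the only inhibitor called lower against both cultures. It read 10.53, 9.81, 8.81 and 10.51 in tissue, 11.09, 11.08, 11.07 and 11.45 in 3D and 11.89, 10.77, 11.88 and 11.99 in 2D (1428136_at). Tissue lay below both cultures, with its lowest value on replicate 3, and averaged 9.91 ± 0.81 beside 11.17 ± 0.19 in 3D and 11.63 ± 0.58 in 2D (SD, n = 4 each). The differences were -1.26 from 3D (adjusted p = 0.0255) and -1.72 from 2D (adjusted p = 0.022). Of its 4 other probe sets 3 were called lower against 3D and 2 against 2D, and 1 differed by 0.02 and -0.33 (adjusted p = 0.945 and 0.325). The brightest probe set's call was lost against 3D in 7 of 23 alternatives. Among these were each 3D array left out (adjusted p = 0.056, 0.0578, 0.0558 and 0.0742), tissue replicate 2 left out (0.0684) and the methods' t-test after adjustment (0.0729). Against 2D the call was lost in 9 of 23. They included array quality weights (-0.92, adjusted p = 0.0844), the methods' t-test after adjustment (0.0714) and 2D replicate 1, 3 or 4 left out (0.0607, 0.0539 and 0.0623). It was also lost with tissue replicate 2 left out (0.0656) and tissue replicates 2 and 3 left out together (-1.11, adjusted p = 0.0697).

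Frzb, also called Sfrp3, read 5.92, 6.14, 6.46 and 5.56 in tissue, 6.63, 8.12, 8.15 and 7.84 in 3D and 7.03, 5.72, 5.16 and 7.07 in 2D (1416658_at). Replicates 2, 3 and 4 of 3D were the highest, 3D replicate 1 lay below 2D replicates 1 and 4, and 2D spanned the range of tissue. Tissue was lower than 3D by 1.67 on the log2 scale (3.17-fold, adjusted p = 0.0069), and so was the other probe set (by 1.40, adjusted p = 0.00431). Against 2D the tissue value differed by -0.22 (adjusted p = 0.713). Although Frzb was called against 3D alone, the test of 3D against 2D itself gave 1.44 with a 95% interval of 0.30 to 2.58 and an adjusted p of 0.338.

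**Figure D3:**
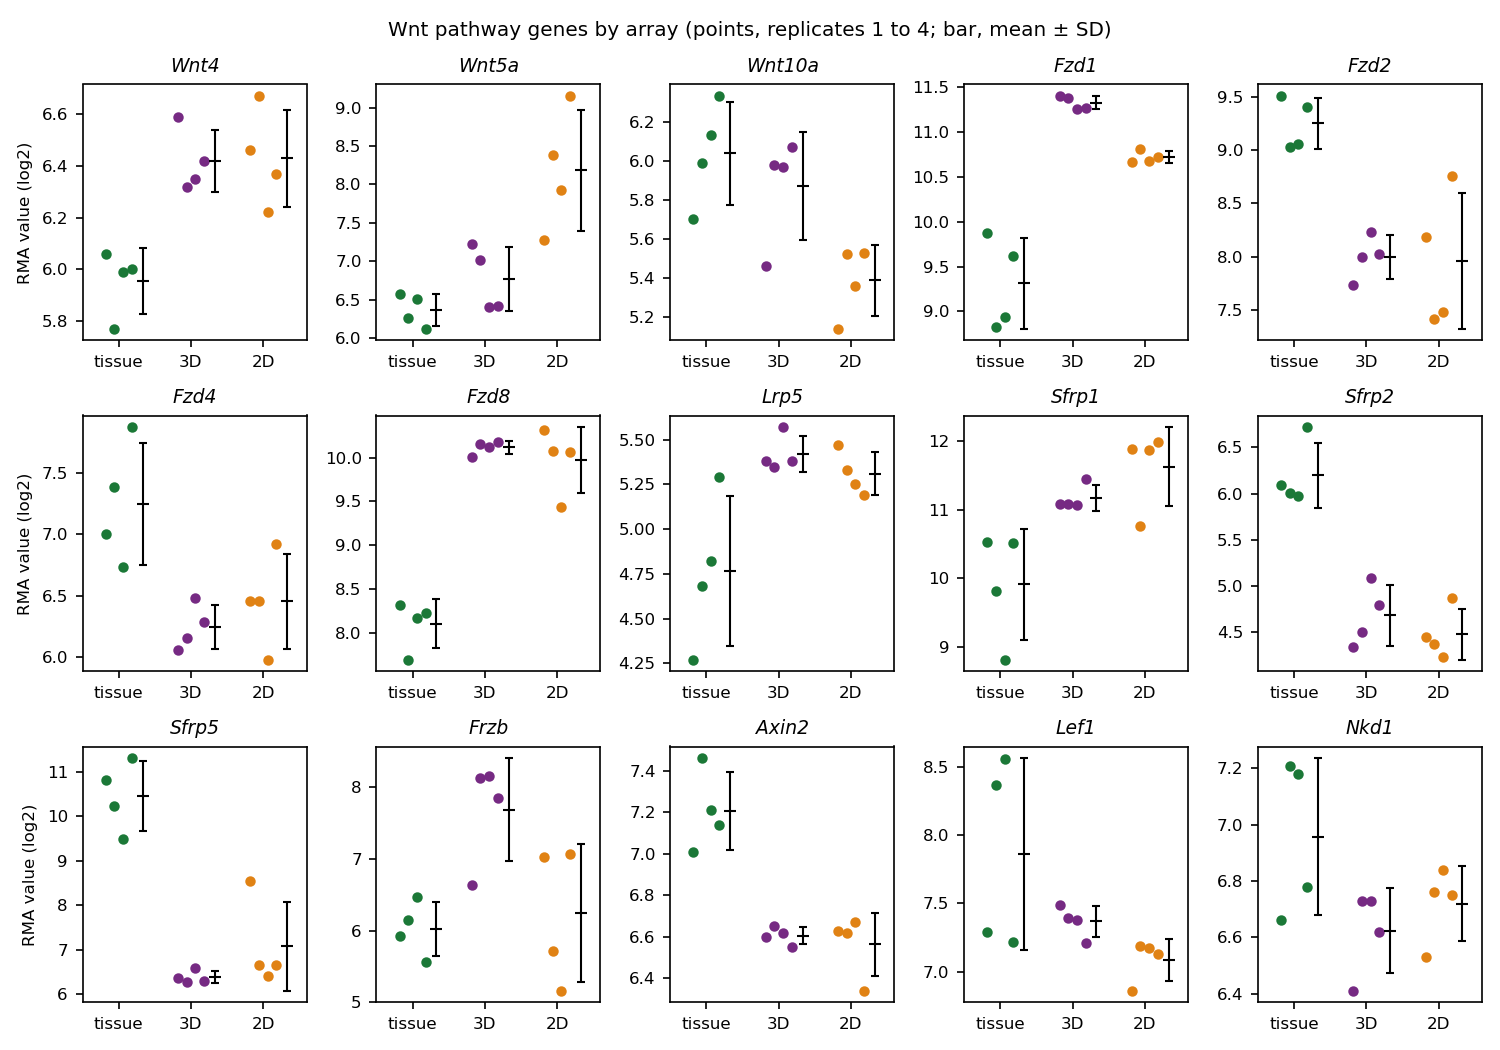
RMA values (log2) of 15 Wnt pathway genes on each of the 12 arrays, in tissue, 3D and 2D; points are replicates 1 to 4 from left to right and bars are mean ± SD of 4 arrays. Each panel has its own axis, which does not start at 0. Sfrp2, Sfrp5 and Axin2 lie higher in tissue than in both cultures and Fzd1, Fzd8 and Sfrp1 lower.

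The other inhibitors, Sfrp4, Dkk1, Dkk2, Dkk3 and Wif1, were not called. Wif1, which binds Wnts outside the cell and was picked in the same way, read 3.60, 3.37, 3.67 and 3.16 in tissue, 3.75, 4.30, 6.72 and 5.21 in 3D and 4.32, 3.32, 2.86 and 3.48 in 2D. The 3D arrays spread widely and did not overlap with tissue, at a difference of -1.54 (adjusted p = 0.0577). Dkk1, a blocker of Lrp5 and Lrp6, differed by 0.21 from 3D and -0.47 from 2D on its brightest probe set (adjusted p = 0.576 and 0.268). Its other probe set, noticed after its values were seen, read 8.14, 7.09, 5.67 and 8.03 in tissue and 10.16, 9.74, 9.47 and 8.46 in 2D and was called lower (-2.23, adjusted p = 0.0246). Dkk3, a divergent member of the Dkk family, differed by 0.55 from 3D (adjusted p = 0.441), while its other probe set, chosen likewise, read 11.18, 10.60, 9.21 and 11.19 in tissue and 9.29, 8.43, 8.24 and 8.05 in 3D, a difference of 2.04 (adjusted p = 0.00922). The R-spondins Rspo1, Rspo2 and Rspo3 were not called against either culture, with differences between -0.52 and 0.37 against 3D and between -0.07 and 0.64 against 2D.

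Axin2, a scaffold of the destruction complex and a feedback gene that beta-catenin signalling switches on in many tissues, read 7.01, 7.46, 7.21 and 7.14 in tissue, 6.60, 6.65, 6.62 and 6.55 in 3D and 6.63, 6.62, 6.67 and 6.34 in 2D (1436845_at). All tissue arrays lay above all culture arrays. Tissue was higher by 0.60 than 3D (1.52-fold, adjusted p = 0.00878) and by 0.64 than 2D (1.56-fold, adjusted p = 0.0204). A dimmer Axin2 probe set differed by -0.06 and 0.04 (adjusted p = 0.731 and 0.871), and the mean over both probe sets was not called (0.27 from 3D, adjusted p = 0.0732; 0.34 from 2D, adjusted p = 0.067). The call against 2D was also lost without 2D replicate 1, 2 or 4 (adjusted p = 0.0506, 0.0568 and 0.0646) or without tissue replicate 2 (0.058).

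Lef1, the DNA-binding partner of beta-catenin, read 7.29, 8.37, 8.56 and 7.22 in tissue, 7.49, 7.39, 7.38 and 7.21 in 3D and 6.86, 7.19, 7.17 and 7.13 in 2D. The high tissue arrays were replicates 2 and 3, the same that had a narrow spread over probe sets and that were low for Fzd7 and Sfrp1, while replicates 1 and 4 stayed within or next to the culture range. Every tissue array still lay above every 2D array, while tissue overlapped with 3D. Differences of 0.49 from 3D and 0.77 from 2D were not called (adjusted p = 0.235 and 0.104), and neither were those of its dimmer probe set. The difference from 2D was called in 1 fit of all 12 arrays (adjusted p = 0.0413) and without tissue replicate 4 (0.99, adjusted p = 0.0448). Nkd1, a feedback inhibitor that binds Dishevelled, read 6.66, 7.21, 7.18 and 6.78 in tissue, 6.41, 6.73, 6.73 and 6.62 in 3D and 6.53, 6.76, 6.84 and 6.75 in 2D. These overlapped, and the differences of 0.34 and 0.24 were not called (adjusted p = 0.146 and 0.317). Another of its 4 probe sets read 7.52, 6.56, 6.07 and 7.66 in tissue, 5.71, 5.72, 5.80 and 5.87 in 3D and 5.56, 5.66, 5.85 and 5.78 in 2D and was called higher, by 1.18 and 1.24 (adjusted p = 0.0251 and 0.0315).

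In all, 7 members were called against both cultures (Fzd1, Fzd2, Fzd8, Sfrp1, Sfrp2, Sfrp5 and Axin2), each in 1 direction, and 13 against at least 1. How many of all genes were called against both cultures was not counted. Over all genes, 24.1% were called against 2D and 35.6% against 3D. Both comparisons share the 4 tissue arrays. Among the members called against 3D, the 14 other probe sets included 8 called with the same sign (57.1%) and 0 called with the opposite sign. Against 2D, 4 of 13 were called with the same sign (30.8%) and 0 with the opposite sign. Over all genes called, 38.5% of the dimmer probe sets were called with the same sign against 3D and 31.6% against 2D. Of the dimmer probe sets of members that were not called, 9 of 30 (30.0%) were called against 3D and 5 of 31 (16.1%) against 2D, beside 28.0% and 17.6% over all genes not called.

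The comparison of 3D with 2D set the scaffold cultures against the flat ones, which also differed in cell markers on single arrays. None of the 43 passed limma's adjusted threshold, with the smallest adjusted p of 0.0607 for Fzd1. At an unadjusted p under 0.05 there were 10 members (23.3%), beside 13.1% of all genes, and the groups did not overlap for 6 (14.0%), Wnt5a, Wnt7b, Fzd1, Fzd3, Fzd5 and Lef1, beside 7.36% of all genes. The 95% intervals of 30 members lay within a 2-fold change in either direction, and the other 13 reached beyond it. Fzd1 differed by 0.61 (95% interval 0.45 to 0.77). Fzd5, chosen after its values were seen, read 6.17, 5.81, 6.20 and 5.94 in 3D and 6.75, 6.71, 7.12 and 7.18 in 2D, a difference of -0.91 (interval -1.23 to -0.59, adjusted p = 0.119). Fzd6 differed by 0.61 (adjusted p = 0.282) and Wif1 by 1.5 (interval 0.13 to 2.87, adjusted p = 0.395). Axin2 differed by 0.04 with an interval of -0.16 to 0.24.

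These calls depended on which arrays entered the comparison and with what weight. With array quality weights, Fzd1 (0.57, adjusted p = 0.0209) and Fzd6 (0.84, adjusted p = 0.0436) were higher and Fzd5 (-0.85, adjusted p = 0.0303) lower in 3D, when 1.71% of all genes were called. Without 2D replicate 4, Fzd1 was called (0.61, adjusted p = 0.0418), when 0.676% of all genes were. Without both 2D replicate 4 and 3D replicate 1, 8 members were called where 7.46% of all genes were. Fzd1, Frzb, Ror2, Rspo3 and Wnt10a were higher in 3D (0.58, 2.07, 1.11, 0.96 and 0.67, with adjusted p of 0.0158, 0.0454, 0.0455, 0.0494 and 0.0246) and Dkk1, Dkk3 and Fzd5 lower (-1.32, -1.0 and -0.88, with adjusted p of 0.0133, 0.0335 and 0.0249). 2D replicate 4 had the lowest level of sympathetic markers among the 2D arrays (mean 9.45 on the log2 scale, against 10.98 to 11.27 on the other 2D arrays) and the highest of macrophage markers (8.67 against 6.04 to 7.74). 3D replicate 1 had the highest level of sympathetic markers among the 3D arrays (mean 10.60 against 9.63 to 9.85) and the lowest of fibroblast markers (10.49 against 10.88 to 11.11). The part of these cells in the calls was not tested.

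Other genes of the pathway were counted in 7 lists that follow the steps of the signal, and each list's share of called genes can be read against the 35.6% of all genes called against 3D and the 24.1% called against 2D. Apcdd1, Lgr5, Znrf3, Rnf43, Notum and Ptk7 each stand in 2 of the lists and are counted in both. None of the 5 further Wnt ligands was called. Of 4 genes of ligand secretion and modification, 2 were lower in tissue against both cultures (50% in each comparison). Wls, which carries Wnt ligands to the surface, read 8.49, 6.87, 6.27 and 8.04 in tissue, 9.51, 9.95, 9.93 and 10.04 in 3D and 9.72, 9.87, 9.36 and 10.61 in 2D. Its tissue arrays all lay below the cultures, by 2.44 against 3D and 2.47 against 2D on the log2 scale (adjusted p = 0.00353 and 0.0091). Trabd2b, a protease that inactivates Wnt ligands, was lower by 1.84 and 1.45 (adjusted p = 8.58e-04 and 0.00764).

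Among 16 other surface and secreted regulators, 3 were higher and 5 lower in tissue than in 3D (50%), and 1 was higher and 5 lower than in 2D (37.5%). Lgr6, a receptor for R-spondins, read 4.58, 4.33, 4.74 and 5.63 in tissue, 10.37, 10.56, 10.51 and 10.74 in 3D and 9.33, 8.93, 8.54 and 9.85 in 2D. The 3 groups did not overlap, and tissue was lower by 5.72 against 3D and by 4.34 against 2D (adjusted p = 4.07e-06 and 1.46e-04). The R-spondins themselves were not called in these comparisons. Ryk, a Wnt receptor related to tyrosine kinases, was lower by 1.87 and 1.65 (adjusted p = 2.63e-04 and 0.012), and Gpc4, a glypican, by 1.30 and 1.96 (adjusted p = 0.00191 and 0.0137). Apcdd1, a membrane inhibitor of the pathway that is itself a target gene, was higher by 2.37 and 1.89 (adjusted p = 5.86e-04 and 0.00358).

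Of 18 genes of the destruction complex and cytoplasmic relay, 4 were higher and 4 lower in tissue than in 3D (44.4%), and 2 were higher and 2 lower than in 2D (22.2%). Nkd2, the paralogue of Nkd1 and a Dishevelled-binding inhibitor, read 7.74, 7.25, 7.94 and 7.34 in tissue, 11.79, 12.15, 12.09 and 12.27 in 3D and 11.02, 11.36, 11.10 and 11.93 in 2D. Tissue lay far below both cultures, by 4.51 against 3D and 3.79 against 2D (adjusted p = 2.61e-06 and 6.24e-05). Apc, the scaffold of the destruction complex, was higher in tissue by 1.67 and 1.79 (adjusted p = 5.13e-04 and 0.00165), and Btrc, the ubiquitin ligase subunit that marks beta-catenin for removal, by 1.42 and 1.23 (adjusted p = 3.5e-04 and 0.0206). Dvl2, a Dishevelled protein, was lower by 0.80 and 0.54 (adjusted p = 0.00289 and 0.0427).

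Of 15 nuclear partners, 2 were higher and 3 lower in tissue than in 3D (33.3%), and 2 were higher and 2 lower than in 2D (26.7%). Of the 4 co-repressors of the Groucho family listed, Tle2 was not called, Tle4 was higher by 2.17 and 1.82 (adjusted p = 4.28e-04 and 0.00737), Tle1 was higher by 0.88 and 0.72 (adjusted p = 0.0114 and 0.0418) and Tle3 was lower by 1.36 and 0.82 (adjusted p = 8.68e-04 and 0.0406). Bcl9, a co-activator of beta-catenin, was lower by 1.74 and 1.31 (adjusted p = 8.5e-04 and 0.00688).

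Of 14 genes known as beta-catenin targets in other tissues, 2 were higher and 6 lower in tissue than in 3D (57.1%, beside 35.6% of all genes), and 1 was higher and 5 lower than in 2D (42.9%, beside 24.1%). The median difference of the list was -0.38 and -0.27, beside 0.03 over all genes in each comparison. Cd44, a receptor for hyaluronan, read 9.95, 8.84, 8.41 and 9.84 in tissue, 13.25, 13.32, 13.22 and 13.34 in 3D and 12.90, 13.31, 13.12 and 13.00 in 2D. Jun, a transcription factor of the immediate response to injury and growth factors, read 9.50, 8.36, 7.05 and 9.0 in tissue, 12.65, 12.89, 12.81 and 12.85 in 3D and 12.46, 12.33, 12.05 and 12.28 in 2D. Both were lower in tissue without overlap, Cd44 by 4.02 and 3.82 (adjusted p = 5.85e-05 and 2.4e-04) and Jun by 4.32 and 3.80 (adjusted p = 2.08e-04 and 0.00105). Myc, a driver of cell growth, was lower by 2.38 and 2.27 (adjusted p = 7.79e-05 and 2.57e-04), and Ccn4, a matrix-associated protein, by 2.53 and 2.59 (adjusted p = 2.65e-04 and 0.00802). Each of these genes also answers to other signals, and all 7 dividing-cell markers were lower in tissue too, whose part in these differences was not tested. Apcdd1, a member of this list, and Axin2, a target outside it, were called in the opposite direction.

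Of 16 planar polarity genes, 6 were higher and 4 lower in tissue than in 3D (62.5%, beside 35.6% of all genes), and 4 were higher and 2 lower than in 2D (37.5%, beside 24.1%). The gap to all genes was not tested for any list. Ankrd6, also called Diversin, was higher by 2.21 and 2.03 (adjusted p = 2.88e-04 and 0.00341), and Dact1, which binds Dishevelled, by 1.59 and 1.84 (adjusted p = 0.00245 and 0.00106). Vangl2, a core polarity protein in the membrane, read 8.07 to 8.22 in tissue, 8.94 to 9.26 in 3D and 8.58 to 9.16 in 2D. It was lower in tissue by 0.89 and 0.60 (adjusted p = 9.63e-04 and 0.0318). Prickle1, another core component, was higher by 1.53 against 3D (adjusted p = 0.00109). None of the genes in these 7 lists was called between 3D and 2D.

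**Figure D4:**
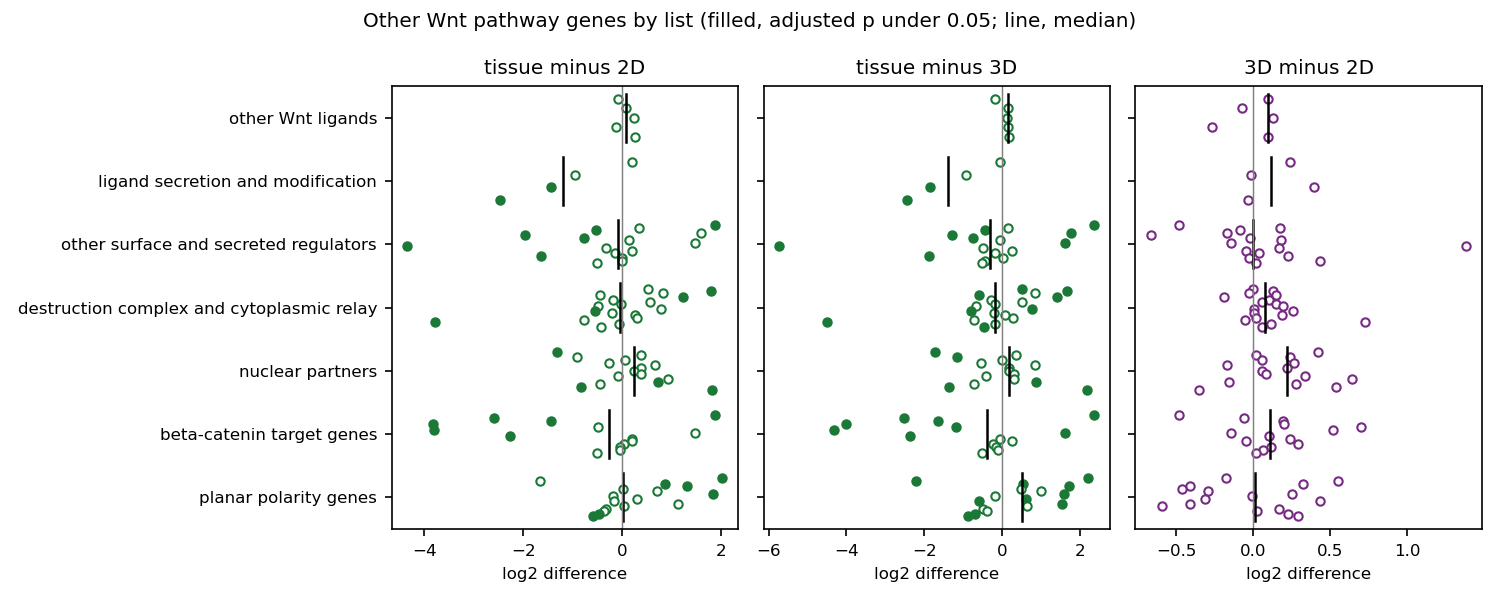
Log2 difference of the other Wnt pathway genes by list, for tissue minus 2D, tissue minus 3D and 3D minus 2D; each point is a gene, filled when its adjusted p is under 0.05, and the black line is the median of the list. Lgr6 lies farthest to the left in both tissue comparisons (-4.34 and -5.72), and Nkd2 (-3.79 and -4.51), Cd44 and Jun are the next. No point is filled in the comparison of the cultures.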

How the data were processed

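RNA of SCG tissue, 3D and 2D samples was hybridised to Affymetrix Mouse Genome 430 2.0 arrays, 12 in all. The deposited values are log2 expression values that the authors computed with RMA (background adjustment, quantile normalization and summarization) in Affymetrix Expression Console, of a version the sources used here do not give. Intensities before RMA were not used, so array quality was not checked on them. Precision is limited by how many arrays there were. The table held 45101 probe sets, of which 64 controls were left out and 45037 were tested. The platform annotation gave 1 symbol to 34945 of these, several to 932 and none to 9160.

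Linear models (lmFit and eBayes of limma 3.58.1, R 4.3.3) were fitted to the 8 arrays of each pair of groups, with Benjamini-Hochberg adjustment over all tested probe sets and a threshold of 0.05. The study's methods name Student's t test on the same pairs. The fit was tested on simulated data with known changes before use. Values on every array are given for genes called in at least 1 comparison whose arrays do not overlap, and for Axin2, Lef1 and Nkd1. Wnt6, Wnt7b, Fzd3, Fzd5, Fzd7 and Wif1, and dimmer probe sets of Wnt6, Fzd3, Dkk1, Dkk3 and Nkd1, were added after their values were seen. Of each list of other pathway genes, at most the 4 with the smallest adjusted p are named. The genes, the lists and the tests were chosen with earlier results of these data known. Tcf7 was not analysed here. Array values of the compared samples were checked for duplicates, and 0 pairs were identical.

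The alternatives comprised a joint fit of the 12 arrays, weights for array quality, a trended robust prior, a filter for probe sets at 6 or more on at least 4 arrays, cyclic loess, centring on bright probe sets, a replicate block, the mean or the most variable probe set of a gene, the methods' t-test, a 2-fold minimum, and arrays left out singly or together.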

Additional observations from a re-analysis of the deposited data

Results flagged for a closer look

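With 4 arrays in a group, 1 array was set far from the other 3 for 9 of the 129 sets of a gene and a group, by a gap that chance gives in about 1 of 20 sets. Sfrp5 read 8.56 on 2D replicate 1, above 6.42 to 6.67 on the other 2D arrays, and without it the tissue difference remained called. Sfrp1 read 10.77 on 2D replicate 2, below 11.88 to 11.99 on the others, and 11.45 on 3D replicate 4, above 11.07 to 11.09. Sfrp2 read 6.72 on tissue replicate 4, above 5.98 to 6.09. Axin2 read 6.34 on 2D replicate 4, below 6.62 to 6.67, and Rspo1 read 4.93 on the same array, below 5.83 to 5.98. Wnt10a read 5.46 on 3D replicate 1, below 5.97 to 6.07. Lrp5 read 5.57 on 3D replicate 3, above 5.35 to 5.38. Wnt3 read 2.93 on tissue replicate 1, below 3.23 to 3.29.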

How the results depend on the processing

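No called difference changed its sign under any alternative run. For the described genes, 873 values kept their side of the threshold, 67 lost a call, 31 gained one and 25 changed sign with neither value called. Fzd1 kept its calls against both cultures in all 23 alternatives. Sfrp2 kept its calls in the 22 that tested it, as the filter on dim probe sets left it out. Fzd8, Sfrp5 and Frzb kept theirs against 3D. Against 2D, Wnt5a, Fzd8 and Sfrp5 lost theirs only with tissue replicate 1 alone (-1.61, -1.65 and 3.74, adjusted p = 0.227, 0.0672 and 0.0791), a fit in which a lone array is assumed to vary like the others. The cause of the changes below was not tested.

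The share of all genes called moved with the setting too. Against 2D it was 24.1%, and 39.4% in 1 fit of all 12 arrays, 34.7% with weights, 31.3% with the filter, 27.4% with cyclic loess, 26.9% with centring, 36.7% and 14.7% with the methods' t-test unadjusted and adjusted, 14.9% with the 2-fold minimum, 14.1% without 2D replicate 4 and 3D replicate 1 together and 4.89% without tissue replicates 2, 3 and 4. Against 3D it was 35.6%, and 46.9% with weights, 39.2% with cyclic loess, 36.7% with centring, 28.2% with the adjusted t-test, 41.0% with the most variable probe set, 19.9% with the 2-fold minimum, and 47.4% and 40.0% without tissue replicates 2 and 3 and without 2, 3 and 4. Members higher in tissue than 2D numbered 5, and 9 in 1 fit of all 12 arrays or with array quality weights. They numbered 8 with centring on bright probe sets or the methods' t-test unadjusted. With the t-test after adjustment, the 2-fold minimum or without 2D replicate 4 and 3D replicate 1 together they numbered 3. The filter on dim probe sets kept 30 of the 43 members, of which 3 were called higher. Sfrp2 and Wnt10a were left out by it and so were not tested there. Members lower numbered 4, and 9 in the fit of all arrays, 7 with cyclic loess or the unadjusted t-test and 2 without tissue replicates 2, 3 and 4. Members higher in tissue than 3D numbered 5, and 9 with weights or without tissue replicates 2 and 3, 8 with the most variable probe set or without tissue replicates 2, 3 and 4, and 3 with the 2-fold minimum. Members lower numbered 6, and 10 with weights or cyclic loess, 9 with the unadjusted t-test (43.7% of all genes) and 4 with centring, the adjusted t-test or the 2-fold minimum. Between 3D and 2D there were 0 calls, and 2 higher and 1 lower with weights. There were 6 and 2 with the unadjusted t-test, when 11.6% of all genes were called. Without 2D replicate 4 and 3D replicate 1 together there were 5 and 3. Leaving out 1 array at a time gave 2 to 8 higher and 3 to 6 lower against 2D (13.0% to 28.2% of all genes). Against 3D it gave 5 to 8 higher and 3 to 9 lower (24.0% to 41.5% of all genes). Between the cultures it gave 0 to 1 higher and 0 to 0 lower (0.0% to 0.676% of all genes).

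Centring moved the median of all genes to 0.31 in both tissue comparisons, and the share of called genes that were higher in tissue to 61.6% against 2D and 60.6% against 3D, where it was 40.9% and 43.5% as deposited and 52.3% with cyclic loess. With the replicate number as a block, Fzd4 was also called against 2D (adjusted p = 0.0214), and 4243, 6138 and 0 of all genes were called for tissue against 2D, tissue against 3D and 3D against 2D, where 4393, 6475 and 3 were without it. Arrays with the same number shared no common deviation in every pair (correlations -0.0981 to 0.35), so they were not treated as pairs.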
